A study of Arabidopsis thaliana with 12 samples.

Results

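Large-subunit proteins of the cytosolic ribosome were followed in rosette axillary buds of Arabidopsis thaliana. The set was a list of 60 loci, chosen because each encodes a protein of the large (60S) subunit, with the stalk protein P0 included. Of these, 37 had a probe set annotated to 1 gene, out of 13286 loci with such a probe set on the array, and 36 passed a filter on dim probe sets (brighter than the 40th percentile of an array on 3 or more of the 12). The locus that did not pass, AT3G48960 of the RPL13 family, had intensities of 3.69 to 9.99 and lay at or below that percentile on all 12 arrays. The other 23 loci were not analysed here. The 36 loci fall into 19 protein families, 12 of which had at least 2 measured paralogs (29 loci). Family names follow the standard naming of Arabidopsis ribosomal proteins, since the annotation used here gives these loci, apart from PGY1, by locus number alone.

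The cytosolic ribosome translates the messenger RNA of nuclear genes. Its large subunit joins amino acids and holds the tunnel through which the new protein leaves. In plants each of its proteins is encoded by a small family of closely related genes, and their transcripts are among the most abundant in dividing and growing tissue. A shoot's axillary buds can stay small or grow out into branches, and light poor in red relative to far-red (low R:FR), which marks shade from neighbours, is known to restrain that outgrowth.

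All plants were of the Col-8 ecotype in the Col-0 background, at developmental stage 6.00, and the labels name no mutation or transgene. They grew singly in tubes with an 18 h photoperiod, 185 µmol per square metre and second of photosynthetic light, and 24 °C by day and 18 °C by night, in a divided chamber in which temperature and photon flux were uniform while R:FR could differ. The 4 groups of 3 arrays each were bud n-2 at low R:FR, bud n-2 at high R:FR, bud n at low R:FR and bud n at high R:FR. The labels do not define n; in this field it usually counts rosette buds from the uppermost, so that n-2 sits lower on the rosette. Total RNA of rosette axillary buds was hybridised to Affymetrix ATH1 arrays, 1 colour per array. The labels do not give the age of the plants, the length of the light treatment, how many buds or plants went into an array, or whether replicates came from separate cultures, so the spread between arrays may be partly technical. In such bulk samples, fewer cells of a kind and less RNA per cell cannot be told apart.

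Median intensity over all probe sets was 42.4 to 44.1 on the bud n-2 arrays and 37.8 to 38.8 on the bud n arrays. This compares with mean intensities of 326 (AT3G11250) to 4020 (AT3G49910) for the 36 loci, whose median was 2019. Of the loci, 27 averaged over 1000. The number of arrays limits the precision: the median SD of a locus within a group was 0.10 on the log2 scale. Of the buds' own markers, 2 of 9 shoot meristem genes had a single-gene probe set, and both lay at or below the 40th percentile on all 12 arrays, so the tissue label could not be checked with them.

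The level of the large-subunit transcripts was lowest in bud n-2 at low R:FR. For each array, the median over the 36 loci of the log2 intensity, taken relative to each locus's own mean over 12 arrays, was -0.34, -0.20 and -0.27 in bud n-2 at low R:FR. It was -0.07, 0.06 and -0.16 in bud n-2 at high R:FR. In bud n it was 0.16, 0.23 and 0.15 under low R:FR and 0.29, 0.11 and 0.09 under high R:FR. The 3 arrays of bud n-2 at low R:FR thus lay below all 9 others, while both bud n groups overlapped. Replicate 2 of bud n-2 at high R:FR and replicate 1 of bud n at high R:FR were the highest of their groups. Counts of loci that rest on either are given without it as well.

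**Figure D1:**
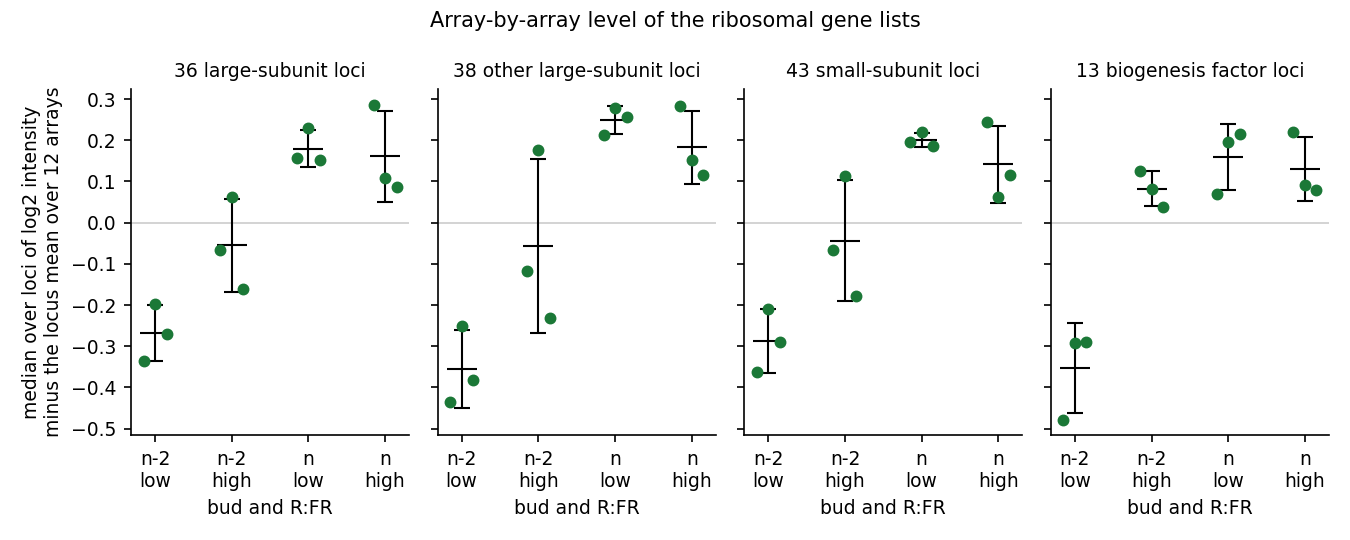
Each point is 1 array and shows the median over the loci of a list of log2 intensity minus the locus mean over 12 arrays, by bud and R:FR, with the group mean and SD (n = 3). In all 4 lists the arrays of bud n-2 at low R:FR lie lowest, between -0.34 and -0.20 for the 36 large-subunit loci.

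The first comparison asked how low R:FR changed these transcripts in bud n-2. Of the 36 loci, 8 fell under low R:FR (22.2%), none rose and 28 did not pass (limma, Benjamini-Hochberg adjusted p under 0.05 over all 14295 tested probe sets). Over all tested probe sets 9.83% passed, 5.49% as lower and 4.34% as higher. The median log2 difference of the 36 loci was -0.22, that is 0.859 of the level under high R:FR, against 0.01 over all tested probe sets. In all, 34 of 36 differences were below 0, where 48.7% of all tested probe sets were, and the arrays of the light groups did not overlap for 17 loci, all lower, where 28.8% of all tested probe sets did not overlap and 13.9% did so as lower. None rose under any alternative, and 18 of 36 loci had an unadjusted p under 0.05, as did 24.3% of all tested probe sets.

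The largest fall in bud n-2 was that of AT3G16780 of the RPL19 family, whose protein reaches from the large towards the small subunit. Its intensity was 333, 407 and 384 under low R:FR, against 556, 608 and 557 under high R:FR. The groups did not overlap, and the log2 difference was -0.62 ± 0.11 (SE, adjusted p = 0.00217). Its paralog AT4G02230 had 1148, 1173 and 1249.8 under low R:FR, against 1211, 1333 and 1207 under high R:FR. The arrays overlapped for this paralog (log2 difference -0.07 ± 0.09 SE, adjusted p = 0.675).

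The RPL14 family, which sits on the solvent side of the subunit, also held a locus that passed and a paralog that did not. Neither the RPL19 nor the RPL14 pair passed the ratio test between light conditions given below, which averages over both buds. AT2G20450 had intensities of 263, 346 and 315 under low R:FR, against 465, 441 and 453 under high R:FR. Its log2 difference was -0.56 ± 0.12 (SE, adjusted p = 0.0089) with no overlap of arrays, although it did not pass without replicate 1 of bud n-2 at low R:FR (adjusted p = 0.0545). Its paralog AT4G27090 had 2811, 2915 and 3093 under low R:FR, against 2855, 3794 and 2519 under high R:FR, and the arrays overlapped (log2 difference -0.04 ± 0.12 SE, adjusted p = 0.893).

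AT3G11250 is 1 of the genes for P0, the protein that anchors the acidic stalk proteins to the large subunit. It was the dimmest of the 36 loci, with 254, 239.5 and 230.4 under low R:FR, against 312, 316 and 349.5 under high R:FR. All low R:FR arrays lay below all high R:FR arrays, and the log2 difference was -0.43 ± 0.08 (SE, adjusted p = 0.0034). AT4G10450 of the RPL9 family had 488, 625 and 512 under low R:FR, against 766, 768 and 717 under high R:FR. It fell by 0.48 (log2, SE 0.11, adjusted p = 0.00892), although the fall did not pass without replicate 1 of bud n-2 at low R:FR (adjusted p = 0.0533).

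Proteins of the RPL10a family form the mobile stalk on the side where spent transfer RNA leaves. AT5G22440 of this family had 724, 718 and 705 under low R:FR, against 889, 952 and 932 under high R:FR, and fell by 0.37 (log2, SE 0.08, adjusted p = 0.00861). Its paralogs AT1G08360 and PGY1, named for the piggyback leaf phenotype, had log2 differences of -0.09 and -0.22 and did not pass. In the RPL13a family, AT4G13170 had 444, 489.9 and 547 under low R:FR, against 690.4, 696 and 639.6 under high R:FR, and fell by 0.46 (log2, SE 0.10, adjusted p = 0.00795). AT5G48760 of the same family had 726, 747 and 717 under low R:FR, against 849, 929 and 901 under high R:FR, and fell by 0.29 (log2, adjusted p = 0.0243). The other 2 members, AT3G07110 and AT3G24830, had log2 differences of -0.33 (adjusted p = 0.0589) and -0.23 and did not pass. AT4G17390 of the RPL15 family had 1633, 1915 and 1704 under low R:FR, against 2203, 2216 and 2258 under high R:FR. It fell by 0.35 (log2, adjusted p = 0.0219) and its paralog AT4G16720 had -0.23. The falls of AT5G48760 and AT4G17390 were each lost under 5 of 15 alternatives. For AT5G48760 these included the fit without replicate 2 of bud n-2 at high R:FR.

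Of these 8 falls, 4 passed under every alternative run: those of AT3G16780, AT3G11250, AT4G13170 and AT5G22440. Without replicate 1 of bud n-2 at low R:FR the count was 4 in place of 8, where 440 of all tested probe sets fell in place of 785. Leaving out replicate 2 of bud n-2 at high R:FR gave 7 loci. With quantile normalization the median log2 difference was -0.13 and 9 loci fell, where 961 of all tested probe sets fell and their median was -0.01. The 2 loci with differences above 0 were AT3G13580 of the RPL7 family (0.13, adjusted p = 0.436) and AT5G60670 of the RPL12 family (0.03).

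**Figure D2:**
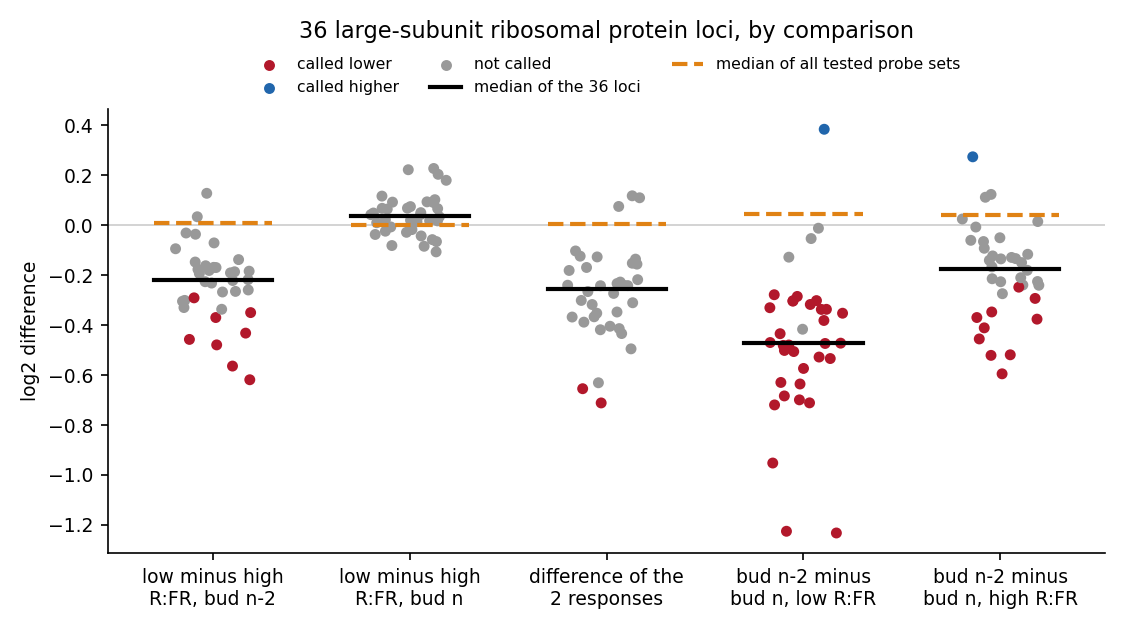
Each point is 1 of 36 loci, with its log2 difference in 5 comparisons. Red points passed as lower, blue as higher, grey did not pass, and lines mark the median of the loci (black) and of all tested probe sets (orange, dashed). The medians of the loci are -0.22, 0.04, -0.25, -0.47 and -0.17 from left to right.

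The second comparison made the same light contrast in bud n. None of the 36 loci passed in either direction in bud n, where 0.0839% of all tested probe sets passed in limma, 0.07% as higher and 0.014% as lower, and 1 of 36 loci had an unadjusted p under 0.05, as did 6.03% of all tested probe sets. The highest log2 difference was 0.23 (AT5G27770, RPL22 family), and the median was 0.04 against 0.00 over all tested probe sets. In all, 25 loci were above 0 and 11 below, where 49.5% of all tested probe sets were below 0. The median of the loci lay between -0.001 and 0.099 when single arrays were left out. The median SE for 1 locus was 0.11.

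The locus with an unadjusted p under 0.05 was AT3G11250, a P0 gene. It had 403, 410.2 and 379 under low R:FR, against 332, 343.5 and 346 under high R:FR, without overlap of arrays (log2 difference 0.22 ± 0.08 SE, adjusted p = 0.714). The arrays also did not overlap for AT4G27090 and AT5G27770, whose log2 differences were 0.20 and 0.23, so that none of the 3 separated loci was lower. AT3G16780 had 858, 932 and 844 under low R:FR, against 990.2, 776 and 723 under high R:FR, and these arrays overlapped (log2 difference 0.09, adjusted p = 0.981). The share without overlap among all tested probe sets was 11.6%, with 5.74% lower, so 3 of 36 is near the background.

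The difference of the light responses between the buds was tested by the interaction term (response in bud n-2 minus response in bud n). It passed for 2 of 36 loci, both more negative in bud n-2, where 1.03% of all tested probe sets passed, 0.686% as negative and 0.343% as positive. AT3G16780 differed by -0.71 ± 0.16 (log2, SE, adjusted p = 0.0379), from responses of -0.62 in bud n-2 and 0.09 in bud n. AT3G11250 differed by -0.65 ± 0.12 (log2, SE, adjusted p = 0.0271), from responses of -0.43 in bud n-2 and 0.22 in bud n. The P0 genes outside the 60 loci did not pass: AT2G40010 had -0.20, from -0.45 in bud n-2 and -0.25 in bud n, and AT3G09200 had -0.17, from -0.27 in bud n-2 and -0.10 in bud n. AT2G20450 had -0.63 ± 0.18 (adjusted p = 0.0913) and AT5G27770 had -0.49 ± 0.17 (adjusted p = 0.156), and neither passed. The median over the 36 loci was -0.25 against 0.00 over all tested probe sets, and 33 of 36 were below 0, where 49.6% of all tested probe sets were.

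Both calls rest on few arrays and on the variance model. With limma's prior variance held the same at all intensities 0 loci passed, but neither did any other of the 14295 tested probe sets. With the trend, 13 of 36 loci had an unadjusted p under 0.05, as did 14.9% of all tested probe sets. The count was 0 with any 1 of 7 single arrays left out, those being each of the 3 low R:FR arrays of bud n, replicates 2 and 3 of bud n at high R:FR, and replicates 1 and 3 of bud n-2 at low R:FR. In these 7 fits 2 to 19 of all tested probe sets passed, against 147 with all arrays. The count of loci was 1 without replicate 2 or 3 of bud n-2 at high R:FR, where 82 and 111 of all tested probe sets passed. It was 3 without replicate 1 of bud n at high R:FR and 6 with array weights. In those fits the count over all tested probe sets also rose, to 264 and 444.

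**Figure D3:**
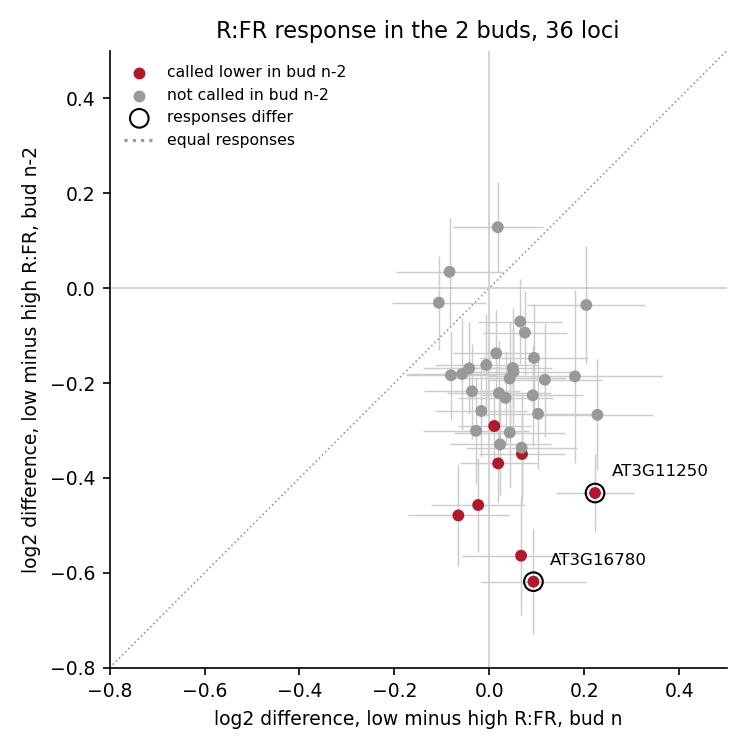
Each point is 1 of 36 loci, with its log2 difference between low and high R:FR in bud n (x axis) and in bud n-2 (y axis) and SE bars. Red points passed as lower in bud n-2, circles mark the 2 loci whose responses differed, and 33 of 36 points lie below the dotted line of equal responses.

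The position comparisons asked how these transcripts differed between bud n-2 and bud n. Under low R:FR, 31 of 36 loci were lower in bud n-2 (86.1%), 1 was higher and 4 did not pass. Over all tested probe sets 51.7% passed, 23.3% as lower and 28.4% as higher. The median log2 difference was -0.47, or 0.722 of the bud n level, against 0.05 over all tested probe sets. With quantile normalization the median was -0.27 and 22 loci were lower. Over all tested probe sets the median was then -0.04 and 3848 were lower. With each array centred on its median, the median of the loci was -0.66 and 32 were lower. Over all tested probe sets it was then -0.15 and 5202 were lower, against 3330 without either step. The arrays were fully separated for 33 of 36 loci, 32 of them lower, where 61.1% of all tested probe sets did not overlap and 27.5% did so as lower.

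The 4 loci with the most negative differences under low R:FR came from 4 families. AT3G16780 (RPL19), at 333, 407 and 384 in bud n-2 against 858, 932 and 844 in bud n, had a log2 difference of -1.23 (SE 0.11, adjusted p = 1.1e-07). AT2G20450 (RPL14) had 263, 346 and 315 in bud n-2, against 788, 657 and 709.5 in bud n, and a difference of -1.23 ± 0.12 (SE, adjusted p = 5.2e-07). Both stood at about 0.43 of their bud n level. Since the light and the position contrasts share the arrays of bud n-2 at low R:FR, they are not independent. AT4G13170 (RPL13a) had 444, 489.9 and 547 in bud n-2, against 939.7, 1017 and 901 in bud n, and a difference of -0.95 ± 0.10 (SE, adjusted p = 6.6e-07). AT3G11250 (P0) had 254, 239.5 and 230.4 in bud n-2, against 403, 410.2 and 379 in bud n, and a log2 difference of -0.72 ± 0.08 (SE, adjusted p = 1.7e-06). All 3 arrays of bud n-2 lay below all 3 of bud n for each of these 4 loci.

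Further loci lower in bud n-2 at low R:FR included both RPL4 paralogs, AT3G09630 (-0.35) and AT5G02870 (-0.48), whose proteins line the exit tunnel. Both RPL17 paralogs, AT1G27400 and AT1G67430, encode another tunnel protein and each had a log2 difference of -0.47. Of the RPL12 family, which binds at the base of the stalk beside P0, AT2G37190, AT3G53430 and AT5G60670 had -0.32, -0.53 and -0.34. AT1G18540 (RPL6) had -0.68, AT2G19730 (RPL28) -0.63 and AT3G05560 (RPL22) -0.57. All loci named here passed. AT4G02230 (RPL19) had 1148, 1173 and 1249.8 in bud n-2, against 1129, 1327 and 1150.2 in bud n. AT4G27090 (RPL14) had 2811, 2915 and 3093 in bud n-2, against 3392, 3099 and 3144 in bud n. Arrays of AT4G27090 were separated, with bud n-2 below bud n, and those of AT4G02230 overlapped. Among the 4 that did not pass were AT4G27090 (RPL14, -0.13), AT4G02230 (RPL19, -0.01) and AT3G49910 (RPL26, -0.42 ± 0.18 SE, adjusted p = 0.065).

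AT3G13580 of the RPL7 family was higher in bud n-2, as the 1 such locus. It had, under low R:FR, 954, 919 and 1017 in bud n-2, against 675, 795 and 747 in bud n, without overlap of arrays (log2 difference 0.38 ± 0.09 SE, adjusted p = 0.00263). It had, under high R:FR, 972, 781 and 899.5 in bud n-2, against 695, 749 and 742 in bud n (0.27 ± 0.09 SE, adjusted p = 0.0324). The call under low R:FR passed under all alternatives run except median centring (adjusted p = 0.0971), and that under high R:FR was lost under 9 of 15. Its paralogs AT2G01250 and AT2G44120 were lower under low R:FR, with -0.33 and -0.50.

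**Figure D4:**
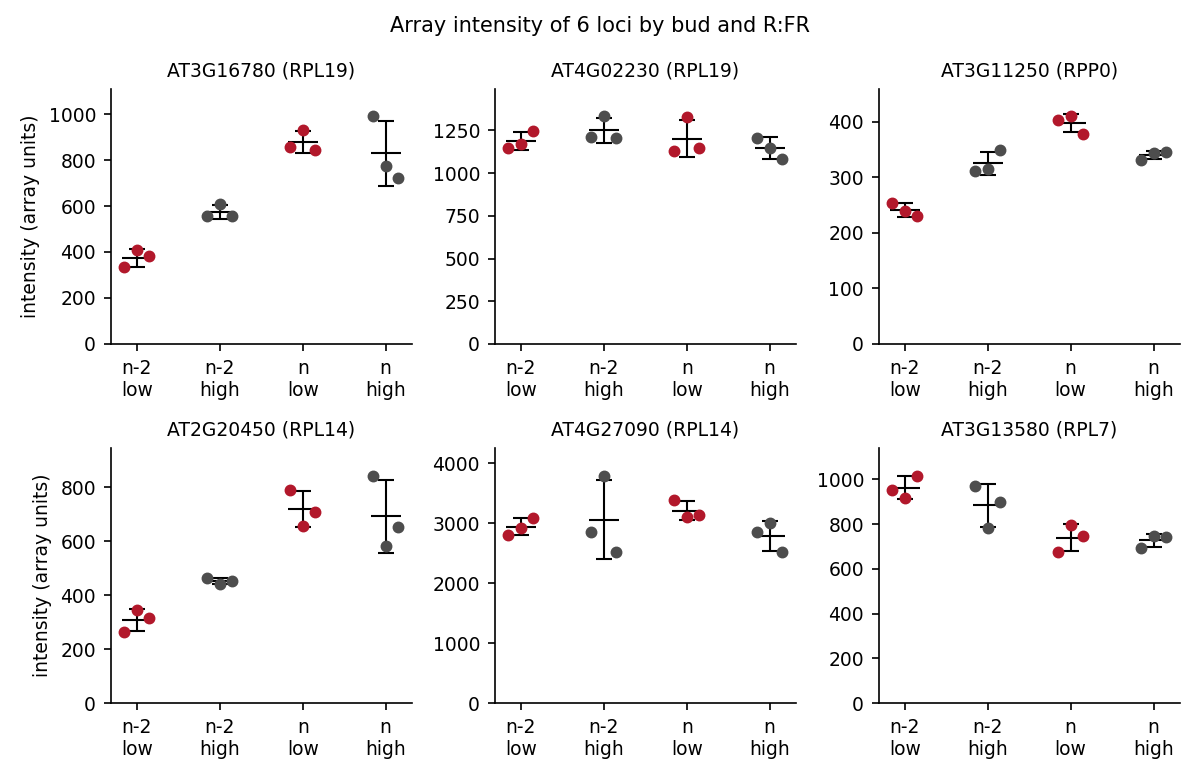
Array intensity of 6 loci by bud and R:FR (points are arrays, bars the group mean and SD, n = 3, low R:FR in red and high R:FR in grey, axes from 0). AT3G16780, AT3G11250 and AT2G20450 are lowest on the 3 arrays of bud n-2 at low R:FR, while AT3G13580 is highest in bud n-2.

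The same contrast was made under high R:FR. In bud n-2, 10 of 36 loci were lower (27.8%), 1 was higher and 25 did not pass, where 34.5% of all tested probe sets passed, 14.3% as lower and 20.2% as higher. Arrays did not overlap for 16 loci, 15 of them lower, where 45% of all tested probe sets did not overlap and 18.9% did so as lower. The median log2 difference was -0.17, against 0.04 over all tested probe sets. These 10 loci were all among the 31 that were lower under low R:FR, which is 100% of the shorter and 32.3% of the longer list, where the longer list itself holds 86.1% of the 36 loci. The position comparisons share no arrays but share an estimate of the spread for each probe set.

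AT2G20450 (RPL14) had 465, 441 and 453 in bud n-2 at high R:FR, against 843, 580.1 and 654 in bud n, and a log2 difference of -0.59 ± 0.12 (SE, adjusted p = 0.0014). AT3G16780 (RPL19) had 556, 608 and 557 in bud n-2, against 990.2, 776 and 723 in bud n (-0.52 ± 0.11 SE, adjusted p = 0.00147). AT4G13170 (RPL13a) had 690.4, 696 and 639.6 in bud n-2, against 1096, 909.5 and 907 in bud n (-0.52 ± 0.10 SE, adjusted p = 0.000645). Each of the 3 had all bud n-2 arrays below all bud n arrays. AT5G60670 (RPL12) had 1172, 1062 and 905 in bud n-2, against 1611, 1316 and 1369 in bud n, and a log2 difference of -0.46 (adjusted p = 0.00492). The others were AT1G18540 (-0.41), AT2G47610 of the RPL7a family (-0.38), AT1G27400 (-0.37), AT3G07110 (-0.35), AT4G17390 (-0.29) and AT5G22440 (-0.25). Without replicate 1 of bud n at high R:FR, AT1G18540, AT3G07110, AT4G17390 and AT5G22440 did not pass. The gene AT3G11250 for P0, with a difference of -0.06, did not pass under high R:FR (adjusted p = 0.57). The loci with the highest differences after AT3G13580 were AT4G02230 (0.12), AT4G27090 (0.11) and AT5G27770 (0.03), and none of these passed. Under high R:FR, AT4G02230 had 1211, 1333 and 1207 in bud n-2, against 1209, 1148 and 1085 in bud n. AT4G27090 had 2855, 3794 and 2519 in bud n-2, against 2850.0, 3012 and 2518 in bud n. AT5G27770 had 1420.3, 1989 and 1334 in bud n-2, against 1576, 1554 and 1459.9 in bud n. The arrays overlapped for all 3 of these loci.

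The count of 10 lower loci was 17 when replicate 2 of bud n-2 at high R:FR was left out. It was 6 when replicate 1 of bud n at high R:FR was left out. These arrays stood highest in their groups. Over all tested probe sets 1952 and 1598 were lower in these fits, against 2044 with all arrays. With each array centred on its median, 25 loci and 4046 of all tested probe sets were lower. Centring itself moves the median of all tested probe sets to -0.13. With quantile normalization 9 loci were lower and 2 higher, where 2348 of all tested probe sets were lower and 2286 higher. The median of the loci was then -0.09, against -0.03 over all tested probe sets.

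Controls and markers of other cells were compared between the same groups. The 25S ribosomal RNA control signal was 2516 ± 344 (SD, n = 3) in bud n-2 at low R:FR and 2205 ± 115 in bud n-2 at high R:FR, against 1646 ± 163 in bud n at low R:FR and 1704 ± 26.5 in bud n at high R:FR. For the actin controls, log2 of the 3-prime over the 5-prime signal, which grows as RNA degrades, was 4.03 to 4.32 in bud n-2 at low R:FR and 4.03 to 4.27 in bud n-2 at high R:FR, against 4.50 to 4.79 in bud n at low R:FR and 4.27 to 4.35 in bud n at high R:FR. The same measure for GAPDH was 0.91 to 1.11 in bud n-2 at low R:FR, against 0.88 to 1.05 in bud n at low R:FR, and for ubiquitin it was 1.34 to 1.57 in bud n-2 at low R:FR, against 1.44 to 1.81 in bud n at low R:FR. At high R:FR, GAPDH had 0.55 to 1.17 in bud n-2, against 0.76 to 1.05 in bud n, and ubiquitin had 1.26 to 1.48 in bud n-2, against 1.23 to 1.58 in bud n. The 25S signal was thus separated between positions, the actin measure was separated under low R:FR and met under high R:FR, and GAPDH and ubiquitin overlapped. Of 5 anther and tapetum markers, 3 were measured, and their summed intensity was 571 to 1171 in bud n-2 at low R:FR, against 184 to 268 in bud n at low R:FR. Under high R:FR it was 525 to 804 in bud n-2, against 344 to 424 in bud n. The markers did not move together there: 1 of the 3 passed as higher in bud n-2 (log2 difference 1.18). The other 2 had differences below 0, the lowest being -0.32, and did not pass. With low R:FR all 3 differences were above 0, and 2 passed as higher. The 1 measured of 14 leaf photosynthesis markers, RCA, had 2855 to 3286 in bud n-2 at low R:FR, against 2800 to 3072 in bud n at low R:FR. Under high R:FR, RCA had 2969 to 3667 in bud n-2, against 2874 to 3373 in bud n, so it overlapped between positions in both light conditions. No vascular or dormancy marker had a single-gene probe set. The part of these measures in the position and light differences was not tested.

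The spread between paralogs was then examined. Between members of a family, log2 position differences under low R:FR had an SD of 0.37 within families, against 0.16 between the means of the 12 families and a median SE of 0.11 for 1 locus. A mean over several loci varies less than a single locus, so the SD of the means is not a like measure to the SD within families. Within families the SD was 0.24 under high R:FR, 0.17 for the light difference in bud n-2 and 0.08 for that in bud n. In 8 of 12 families every measured paralog was lower in bud n-2 at low R:FR, where 86.1% of the 36 loci were lower. Whether paralogs of a family moved together more than other loci was not tested. The widest range was that of RPL19, at 1.22 on the log2 scale, and the narrowest was that of RPL17, at 0.001. RPL14 and RPL7 had ranges of 1.10 and 0.89, and RPL13a had 0.65.

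To test whether paralogs moved apart, the log2 ratio of both probe sets was taken within each array, which a scaling of the array by 1 factor does not affect. For 23 pairs in 12 families, its change between positions was tested by an exact permutation test within each light condition (2-sided, 400 regroupings, smallest possible p 0.005), and its change between light conditions in the same way within each position, with adjustment over 46 tests. Between positions 7 pairs in 3 families passed, each at p = 0.005 (exact permutation test, adjusted p = 0.0329). With quantile normalization 14 pairs passed. Pairs of 1 family share members and are not independent. Since no p can lie below 0.005, the adjusted p depends on how many pairs reach it. Most of the 7 are RPL13a pairs that share loci, so the calls of the RPL19 and RPL14 pairs also depend on these.

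The ratio of AT3G16780 to AT4G02230 (RPL19) differed between bud n-2 and bud n by -1.22 on the log2 scale under low R:FR and by -0.64 under high R:FR. The ratio of AT2G20450 to AT4G27090 (RPL14) differed by -1.10 under low R:FR and by -0.71 under high R:FR. The other 5 pairs were all of RPL13a, whose 4 paralogs make 6 pairs. Of these, AT3G24830 relative to AT4G13170 was higher in bud n-2 by 0.65 under low R:FR and by 0.53 under high R:FR. AT4G13170 relative to AT5G48760 differed by -0.52 under low R:FR and by -0.39 under high R:FR. AT3G07110 relative to AT3G24830 differed by -0.40 under low R:FR and by -0.36 under high R:FR. In most of the pairs that passed, the dimmer paralog was further down. These were AT3G16780 (mean intensity 664, against 1197), AT2G20450 (543, against 3000) and AT4G13170 (773) in each of its RPL13a pairs. The brighter paralog was further down in the pairs of AT3G07110 (2260) with AT5G48760 (897) and with AT3G24830 (2204). Under low R:FR these 3 loci had -0.70, -0.43 and -0.30. A part of brightness in the ratios was not tested. Under low R:FR, AT3G07110 had 1464, 1754 and 1737 in bud n-2, against 2554, 3047 and 2450.4 in bud n. AT3G24830 had 1927, 1974 and 1885 in bud n-2 at low R:FR, against 2312, 2499 and 2325 in bud n. AT5G48760 had 726, 747 and 717 in bud n-2 at low R:FR, against 1012, 948 and 999 in bud n. Arrays did not overlap for any of these 3 paralogs.

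The RPL7 pair of AT2G44120 and AT3G13580 had a change of -0.72 averaged over the light conditions (exact permutation p = 0.015, adjusted p = 0.0627) and the RPL7a pair of AT2G47610 and AT3G62870 had -0.25 (exact permutation p = 0.01, adjusted p = 0.0575), so neither passed. Between light conditions no pair passed, and 1 of 23 had an unadjusted p under 0.05 (exact permutation test). The largest light change was -0.33 for the RPL14 pair (exact permutation p = 0.065, adjusted p = 0.136), averaged over a change of -0.53 in bud n-2 and -0.14 in bud n. Paralogs of a family are close in sequence, and binding of a paralog's RNA to another's probe set, which would draw their values together, was not measured.

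**Figure D5:**
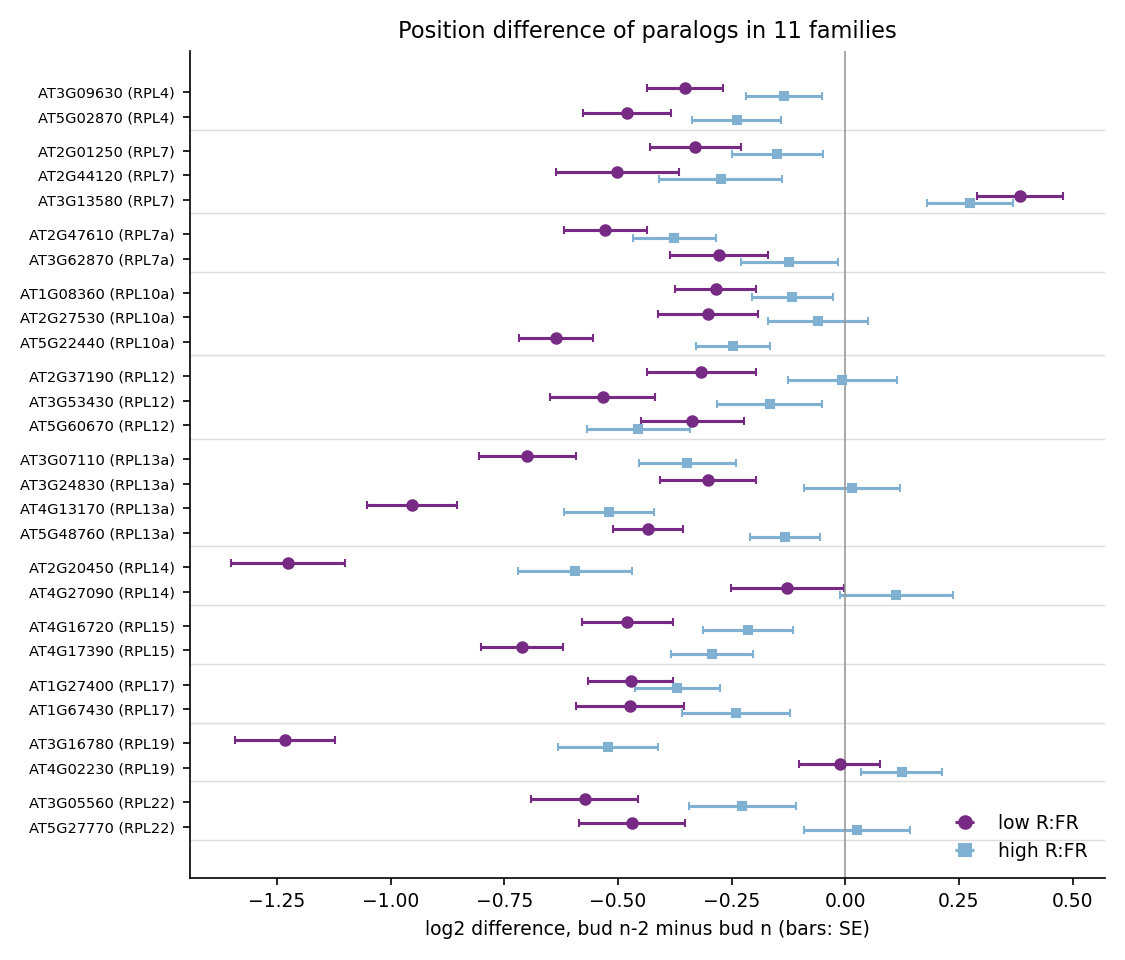
Log2 difference between bud n-2 and bud n for 27 loci in 11 of the families, with SE bars, under low R:FR (circles) and high R:FR (squares). Paralogs of RPL14 and RPL19 lie 1.10 and 1.22 apart under low R:FR, those of RPL17 coincide, and AT3G13580 of RPL7 lies above 0 under both light conditions.

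Dimmer and brighter loci were set side by side. For the 9 loci with a mean intensity of 1000 or less, the median log2 difference between light conditions in bud n-2 was -0.43, against -0.19 for the 27 brighter ones. The 8 loci that fell there were all among these 9, apart from AT4G17390 (mean intensity 2392). Of the 9, AT3G13580 and AT5G23900 did not pass there. Both loci that passed for the difference of responses, AT3G16780 (664) and AT3G11250 (326), were among the 9. For the position difference under low R:FR the medians were -0.64 and -0.42, and under high R:FR -0.18 and -0.17. For light in bud n they were 0.02 and 0.04. Across the 36 loci, Spearman's rho with mean intensity was 0.27 for light in bud n-2, 0.18 for light in bud n, 0.20 for position under low R:FR, 0.10 for position under high R:FR and 0.17 for the difference of responses. Pearson's r with log2 mean intensity was 0.41, 0.04, 0.30, 0.16 and 0.33 in the same order. These are descriptions across genes on the same 12 arrays. The highest intensity of any locus on 1 array was 5916, where 8248 was the highest of all probe sets, and whether probes of bright loci were near saturation was not tested.

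Other parts of the translation machinery were set beside these loci. Of all tested probe sets, the shares that passed as lower, given above, were 5.49% for light in bud n-2, 23.3% for position under low R:FR and 14.3% for position under high R:FR. Of 65 further large-subunit loci, 43 had a probe set and 38 were tested. Of these, 33 were lower in bud n-2 at low R:FR and 14 under high R:FR, and 9 fell under low R:FR in bud n-2. The medians were -0.64, -0.25 and -0.28, with no locus passing as higher. Of 94 small-subunit loci, 43 were tested: 30 were lower in bud n-2 at low R:FR, 14 were lower and 1 was higher under high R:FR, and 11 fell in bud n-2 at low R:FR (medians -0.50, -0.20 and -0.24). In bud n, 0 of 38 and 0 of 43 passed for light in limma. The light responses differed between buds for 2 of 38 and 4 of 43, all more negative in bud n-2 (medians -0.35 and -0.31). Of the 36 loci 2 passed, with a median of -0.25, and of all tested probe sets 1.03% passed, 0.686% as negative. The calls of the other lists were not followed under the alternatives. A difference between these lists and the 36 loci was not tested.

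Of 30 loci on a list of ribosome biogenesis factors, which process ribosomal RNA and assemble the subunits, 13 were tested. In bud n-2, 9 of 13 fell under low R:FR (median log2 difference -0.42), with AT3G22660 at -0.71 (SE 0.10, adjusted p = 0.000322) and AT3G05060 at -0.69 (SE 0.09, adjusted p = 0.000111). Between positions 12 of 13 were lower in bud n-2 at low R:FR (median -0.50) and 1 of 13 under high R:FR (median -0.02). The light responses differed between buds for 4 of 13, all more negative in bud n-2, where 1.03% of all tested probe sets passed, 0.686% as negative. These 4 calls were not followed under the alternatives, in some of which few or no probe sets passed. Of 14 translation elongation factor loci 2 were tested, and AT5G12110 was lower in bud n-2, with log2 differences of -2.43 under low R:FR and -1.78 under high R:FR (SE 0.18 each). AT5G19510 did not pass, with -0.21 under low R:FR and 0.16 under high R:FR. Of 7 loci on the list of TOR signalling and regulators of ribosomal genes, RAPTOR1 and RAPTOR2 were tested, with light differences in bud n-2 of 0.18 and 0.15 that did not pass. By position, RAPTOR1 was higher in bud n-2 at low R:FR (log2 difference 0.34, adjusted p = 0.0211) and RAPTOR2 was lower in bud n-2 at high R:FR (log2 difference -0.44, adjusted p = 0.0255).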

How the data were processed

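The deposited table holds intensity values on a linear scale for 22810 probe sets on 12 arrays, which the authors had made with MAS5 and GCOS, per the submitters' processing notes; the sources used here give neither versions nor settings. The mean of each array after trimming 2% at both ends was 100, so arrays were scaled by 1 factor each, which leaves the shapes of their distributions different. No pair of arrays was identical, and correlations within groups were 0.940 to 0.956 over all probe sets.

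The 64 control probe sets were left out, intensities were log2-transformed with no offset, and 14295 probe sets passed the filter. A model with 1 mean for each of the 4 groups was fitted on the 12 arrays (R 4.3.3, limma 3.58.1, lmFit and eBayes with an intensity trend, 8 residual degrees of freedom), with Benjamini-Hochberg adjustment over all tested probe sets and a threshold of 0.05. Probe set names came from GEO's platform annotation, matched to loci in RefSeq's TAIR10.1 gene table: 13436 single-gene probe sets matched a locus. Each member had 1 such probe set, all with the plain suffix. Array values are given for loci that passed in a light comparison or the difference of responses, for the 4 highest and 4 lowest position differences, and for paralog pairs with the smallest p. The members, lists and families were chosen with earlier results of these data known. The values of 1 family, to which the rule on array values also applied, are not reported here.

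On simulated data for the light difference in bud n-2 (14295 probe sets, 200 of them changed), recovery was 35.8% for log2 changes of 0.5, 85.1% for 1 and 100% for 2, with 7 false calls. Groups share replicate numbers, but deviations from group means correlated at -0.143 to 0.0755 over 18 same-numbered pairs of arrays, so the numbers were not taken as pairing. The alternatives tried were each array left out, the compared arrays alone, a replicate block, array weights, a prior without the trend, the filter dropped or moved to the 60th percentile, an offset of 32, and centring on the median or quantile normalization of the arrays.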

Additional observations from a re-analysis of the deposited data

Results flagged for a closer look

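The light response of AT3G16780, an RPL19 gene, differed between the buds by -0.711 on the log2 scale (bud n-2 minus bud n, limma interaction term, adjusted p = 0.0379), with responses of -0.62 in bud n-2 and 0.09 in bud n. AT3G11250, 1 of the genes for P0, differed by -0.654 (limma interaction term, adjusted p = 0.0271), with responses of -0.43 in bud n-2 and 0.22 in bud n. Both were singled out because the test of the difference itself passed. AT3G16780 kept its call under 8 of 20 alternatives and AT3G11250 under 12 of 20, with adjusted p-values of 0.0084 to 0.116 and 0.0084 to 0.091 over them, and neither changed sign.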

How the results depend on the processing

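No locus that passed in any comparison changed sign under an alternative. Of the loci that passed, 4 of 8 for light in bud n-2, 5 of 11 for position under high R:FR, 21 of 32 for position under low R:FR and 0 of 2 for the difference of responses passed under every alternative that could change them. Quantile normalization gave medians of -0.13 for light in bud n-2, -0.27 for position under low R:FR and -0.09 for position under high R:FR. For the difference of responses the median was -0.17. Over all tested probe sets these medians were -0.01, -0.04, -0.03 and -0.01 in the same order. Quantile normalization also gave 2 higher loci for position under high R:FR, and 14 paralog pairs in place of 7 between positions. Median centring gave 25 lower and 0 higher loci with a median of -0.34 for position under high R:FR. Under low R:FR it gave 0 higher with a median of -0.66. It moves the median of all tested probe sets to -0.13 and -0.15 in these, with 4046 and 5202 of them lower. AT3G13580, the 1 locus with a higher level by position at high R:FR, was lost (count 0) with no filter, with no trend and with the compared arrays alone. The count for the difference of responses, 2 lower, was 1 with no filter and 0 with no trend, where no probe set passed at all. It was 6 with array weights and 1 with the replicate block. Over all tested probe sets 90 passed with no filter, 444 with array weights and 105 with the block, against 147. The block changed no other count by over 1.5 times. The cause of these changes was not tested.

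With single arrays left out, the lower counts ranged from 4 to 8 for light in bud n-2, 6 to 17 for position under high R:FR, 25 to 29 for position under low R:FR and 0 to 3 for the difference of responses, with 0 to 1 higher for position under high R:FR. Medians ranged from -0.36 to -0.18 for the difference of responses. The mean over a locus's probe sets and the restriction to plain probe sets change nothing, since each locus has 1 plain probe set. In the simulation for light in bud n-2, 35.8% of changes of 0.5 were recovered over 14295 probe sets. The rate for the 36 loci alone was not worked out, so it cannot be applied to them. Their median SE in that comparison was 0.11. Among loci that did not pass there, the most negative log2 difference was -0.34 (AT2G19730, SE 0.12). Failing to pass does not show that a locus was unchanged.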
